A study of Mus musculus with 12 samples.

Results

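The antioxidant response genes described here are 10 genes of the Nrf2 pathway, chosen by symbol for their place in the pathway: Nfe2l2, Keap1, Hmox1, Nqo1, Gclc, Gclm, Slc7a11, Txnrd1, Srxn1 and Sod2. Earlier results of these data were known when they were chosen. They are 10 of the 55335 genes quantified in the series, and all 10 were among the 14008 genes that passed the filter on low counts and were tested.

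RNA-seq was performed on BMDCs, dendritic cells grown from the bone marrow of C57BL/6 mice in GM-CSF for 6 days, with 3 biological replicates in each of 4 groups. WT cells carried CreER and unmodified Ctcf alleles, and KO cells carried CreER with loxP-flanked Ctcf alleles (CreER;CTCF fl/fl). WTL and KOL were the same cells given LPS, a component of the bacterial cell wall, at 100 ng/ml for 3 h. All 4 groups therefore shared the CreER transgene, which is expressed from the Rosa26 locus in all cell types. To delete Ctcf, cultures were given 4-OHT from their first day, and whether the WT cultures also received it is not clear from the sources used here. An effect of 4-OHT itself and an effect of Ctcf deletion cannot be told apart if they did not. The cells were floating cells selected for CD11c, and the culture medium held the reducing agent 2-mercaptoethanol in all groups. Bone marrow came from young adult mice of both sexes.

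Nrf2, the product of Nfe2l2, is a transcription factor of the cap'n'collar family that pairs with small Maf proteins. In unstressed cells Keap1 holds Nrf2 and presents it to a Cul3 ubiquitin ligase, so that Nrf2 is degraded. Electrophiles and oxidants modify cysteines of Keap1, and the Nrf2 that escapes binds antioxidant response elements at genes for heme breakdown, quinone reduction, glutathione synthesis and the thioredoxin system. Because control acts largely on the protein, the mRNA of Nfe2l2 is not a measure of Nrf2 activity. In myeloid cells the pathway is known for limiting oxidative injury while NADPH oxidase is active, and Sod2 is also a well-known target of NF-κB.

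The promoter sequences are shown because antioxidant response elements are the letters through which Nrf2 acts. RefSeq promoter windows (GRCm38.p6, 250 bases before to 50 after the start site, 300 in all) were given for 8 of the 10 members, in 10 windows. Hmox1 and Gclc had none. The core of the element was searched on both strands as TGACNNNGC and was found in 4 of the 10 windows, 1 each of Gclm, Nfe2l2, Srxn1 and Txnrd1, where 12.4% of 32851 windows of the same length over all genes held it. The AP-1 site was searched as TGANTCA, which 7.81% of all windows held, and a core that goes on as TGACTCA also holds it. Each stretch below is 100 bases long, 5′ to 3′ on the strand of the gene. Capitals mark the antioxidant response element core in Gclm, Nfe2l2 and Txnrd1, and the AP-1 sites in Srxn1.
Gclm, chr3:122245393-122245492, plus strand: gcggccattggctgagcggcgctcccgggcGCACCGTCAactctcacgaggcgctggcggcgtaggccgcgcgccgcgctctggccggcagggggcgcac
Nfe2l2, chr2:75704814-75704913, minus strand: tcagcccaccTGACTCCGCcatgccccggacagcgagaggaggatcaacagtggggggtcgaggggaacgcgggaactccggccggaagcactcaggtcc
Srxn1, chr2:152105392-152105491, plus strand: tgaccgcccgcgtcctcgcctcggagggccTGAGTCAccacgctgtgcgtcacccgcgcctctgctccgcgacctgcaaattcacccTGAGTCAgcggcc
Txnrd1, chr10:82859084-82859183, plus strand: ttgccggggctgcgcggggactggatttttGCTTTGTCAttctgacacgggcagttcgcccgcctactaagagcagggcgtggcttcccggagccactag

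Positions are counted from the start site, with negative values before it. The core opened at position -134 in Gclm and at -92 in Txnrd1, on the reverse strand of each window, and at -240 in Nfe2l2 on the forward strand. The Txnrd1 match lay in 1 of the 3 windows of that gene. Srxn1 had AP-1 matches at positions -102 and -45 and a core on the reverse strand at 29. The match at -45 goes on as TGAGTCAGC, and forms of the core that open with TGAG were not searched. A match is a description of letters and not of binding, and elements known to lie farther from the start of some of these genes fall outside the windows.

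Total expected counts were 12769773 to 16586334 per library. Ribosomal RNA genes took 5.17% of WTL replicate 2 and at most 1.18% of any other library, and the calls of members that are lost without that replicate are named below. The normalized count of Ctcf checked the labels. It was 1051, 987 and 975 in WT and 570, 562 and 516 in KO, a log2 fold change of -0.87 ± 0.08 (SE), and 886, 817 and 745 in WTL against 563, 530 and 526 in KOL (-0.59 ± 0.08). KO libraries thus held 54.7% and KOL libraries 66.2% of the Ctcf counts of their WT counterparts, in every library below. These counts cover the whole gene and do not show how much intact Ctcf mRNA remained. The mean transcript length that RSEM gave Ctcf was 2867 to 3030 bases in WT and 2387 to 2557 in KO. It was 2813 to 3191 in WTL and 2520 to 2926 in KOL, which overlapped. The study itself reported depletion of CTCF mRNA and protein, and loss or strong reduction of CTCF binding. Il6, Il12b, Ptgs2 and Cxcl10, which check the stimulation, rose with LPS in both genotypes. Each of the 4 was called lower in KO against WT and in KOL against WTL, where 22.4% and 23.3% of all genes were. A call is an adjusted p under 0.05 in edgeR's test on counts scaled to library size.

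Dendritic cell markers were abundant in all libraries, with the summed TPM (a length-corrected share of all transcripts) of 8 markers at 9335 to 10031 in WT, 9407 to 13325 in WTL, 6818 to 7142 in KO and 10060 to 15073 in KOL. In KO against WT, 4 of these 8 were called lower and 1 higher. The marker counts for KO against WT stand beside 22.2% of all genes called higher and 22.4% lower. Flt3, a growth factor receptor of dendritic cells, was at 0.843 TPM on average in KO. The summed TPM of 6 neutrophil and granulocyte precursor markers was 365 to 389 in WT and 191 to 223 in KO, and all 4 that could be tested fell. In WTL it was 337 to 427 and in KOL 286 to 331. That of 8 macrophage markers was 503 to 554 in WT, 623 to 649 in KO, 223 to 290 in WTL and 228 to 279 in KOL. In KO against WT, 3 macrophage markers rose and 3 fell. The 4 red pulp macrophage markers summed to at most 18.3 TPM in any library, and in KO against WT 1 of them fell and the other 3 did not pass. Sums of 4 markers each for erythroid cells, for mast cells and basophils and for lymphocytes were at most 4.27 TPM in any library. TPM of all genes shifts with LPS, as given below, so calls with LPS are added. In WTL against WT, 6 dendritic cell markers were called higher and 0 lower, and 2 macrophage markers higher and 2 lower. All 4 neutrophil and granulocyte precursor markers tested were higher. Over all genes, 30% were higher and 30.2% lower. In KOL against KO the same 3 lists gave 6 higher and 1 lower, 5 higher and 2 lower, and 4 higher. There 33.6% of all genes were higher and 33.9% lower. These marker levels move with genotype and LPS as the members do, and their part in the results below was not tested. In bulk RNA, fewer cells of a type and less RNA per cell cannot be told apart.

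TPM divides by transcript length, so it was used to rank the members within a group. In WT, Hmox1 was highest at 588 ± 34.2 TPM (SD, n = 3), followed by Txnrd1 at 266 ± 14.2 and Nfe2l2 at 245 ± 15.1. The ranges of Txnrd1 and Nfe2l2 overlapped. Gclm (188 ± 7.03), Srxn1 (178 ± 10.9) and Sod2 (171 ± 25.5) formed a middle group, in which each range overlapped the next. Slc7a11 (99.0 ± 4.95) and Nqo1 (67.4 ± 4.96) came next and were apart from their neighbours. Gclc (27.6 ± 2.09) and Keap1 (25.9 ± 1.62) were lowest and overlapped.

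**Figure D1:**
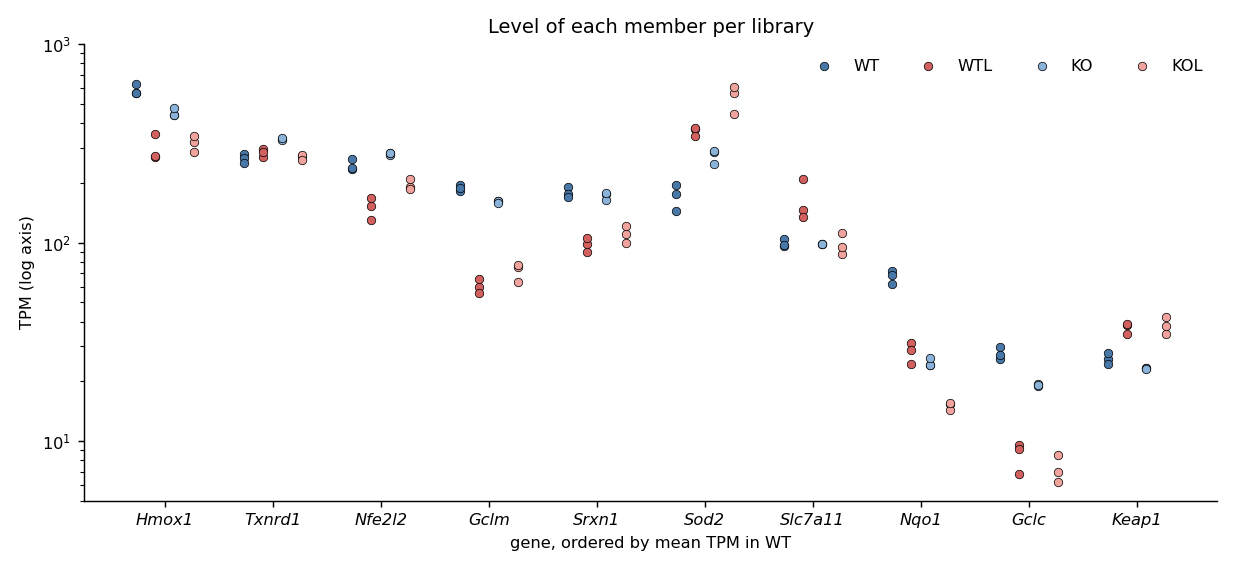
TPM of each member (log axis) in each of the 12 libraries, with genes ordered by their mean in WT and points coloured by group. Hmox1 is the highest member in WT and KO (means of 588 and 450 TPM), and Sod2 is the highest in WTL and KOL (366 and 538 TPM), although its WTL range overlaps that of Hmox1.

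With LPS the order changed. In WTL, Sod2 was at 366 ± 17.9 TPM, Hmox1 at 298 ± 47.2 and Txnrd1 at 284 ± 14.4, each overlapping the next. Gclc was lowest at 8.47 ± 1.45 TPM. In KO, Hmox1 (450 ± 19.8) was followed by Txnrd1 (332 ± 3.39), Nfe2l2 (280 ± 4.56) and Sod2 (274 ± 21.8), of which the last pair overlapped. In KOL, Sod2 reached 538 ± 84.5 TPM and lay above Hmox1 (316 ± 28.2) in every library, and Nqo1 (15.1 ± 0.65) and Gclc (7.25 ± 1.16) were lowest.

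For comparisons between libraries, expected counts were scaled to effective library size, and the result is called the normalized count. Fold changes are log2 values with their SE, and a gene is called where the adjusted p of edgeR's quasi-likelihood test is under 0.05. LPS also moved the scale on which all genes are read. On log2(TPM + 1), the median log2 fold change of all genes was -0.44 in WTL against WT, -0.10 in KO against WT, -0.05 in KOL against WTL and -0.38 in KOL against KO, whereas on normalized counts it was between -0.03 and -0.01. Of the genes called, 49.9% were higher in WTL on normalized counts and 18.5% on TPM, 49.7% and 24.5% in KOL against KO, 49.8% and 36.4% in KO against WT, and 49.9% and 61.1% for the interaction. Changes of the members are given on normalized counts, and the calls of members that turn or are lost on log2(TPM + 1) are named. Of the members not called in KO against WT, Keap1, Gclm, Slc7a11 and Srxn1 all turned from a small positive to a negative value on TPM, without a call.

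The comparison of WTL with WT asks how the pathway responds to LPS in CTCF-sufficient cells. The members did not move as a block. Sod2, Slc7a11, Keap1 and Txnrd1 rose, and Gclc, Gclm, Nqo1, Hmox1, Srxn1 and Nfe2l2 fell. All 10 were called, 4 higher and 6 lower, where 60.2% of all genes tested were called, 30% higher and 30.2% lower. These shares over all genes, here and below, were not matched to the members for expression level. With at least 10 counts in every library, 7305 of 11325 genes were called. The median of the members was -0.27 and that of all genes -0.02. With the study's fold cutoff of 2, 5 members passed (Keap1, Slc7a11 and Sod2 higher, Gclc and Gclm lower), against 22.6% of all genes, 12.6% higher and 9.99% lower.

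The comparison of KO with WT asks what CTCF depletion does at rest. Nqo1 fell furthest among the members, Gclc and Hmox1 also fell, and Sod2, Txnrd1 and Nfe2l2 rose. These are 6 of the 10 members, where 44.6% of all genes were called, 22.2% higher and 22.4% lower. Keap1, Gclm, Slc7a11 and Srxn1 were not called. The median was 0.07 and that of all genes -0.01. With the study's cutoff of 1.3, Sod2, Nqo1 and Gclc passed, and 34.5% of all genes did, 17.3% higher and 17.2% lower.

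After LPS, KOL differed from WTL in 6 of the 10 members, where 44.7% of all genes were called, 21.4% higher and 23.3% lower. Sod2, Gclm, Nfe2l2 and Srxn1 were higher in KOL, and Nqo1 and Slc7a11 were lower. The median of the members was 0.10 and that of all genes -0.03. With the study's cutoff of 1.5, only Nqo1 and Slc7a11 of the members passed, and 25% of all genes did, 12.5% in each direction.

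In KOL against KO, Sod2, Keap1, Slc7a11 and Txnrd1 rose and Gclc, Gclm and Nqo1 fell. These are 7 of the 10 members, where 67.5% of all genes were called, 33.6% higher and 33.9% lower. Nfe2l2, Hmox1 and Srxn1 were not called. The median was -0.06 and that of all genes -0.02. At a cutoff of 2, Sod2 and Keap1 passed, and 28.1% of all genes did, 15.1% higher and 13% lower. On log2(TPM + 1), Txnrd1 turned to -0.30 ± 0.06 and was called lower, Slc7a11 lay at -0.01 ± 0.14 and was not called, and Nfe2l2 (-0.52), Hmox1 (-0.51) and Srxn1 (-0.65) were called lower.

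**Figure D2:**
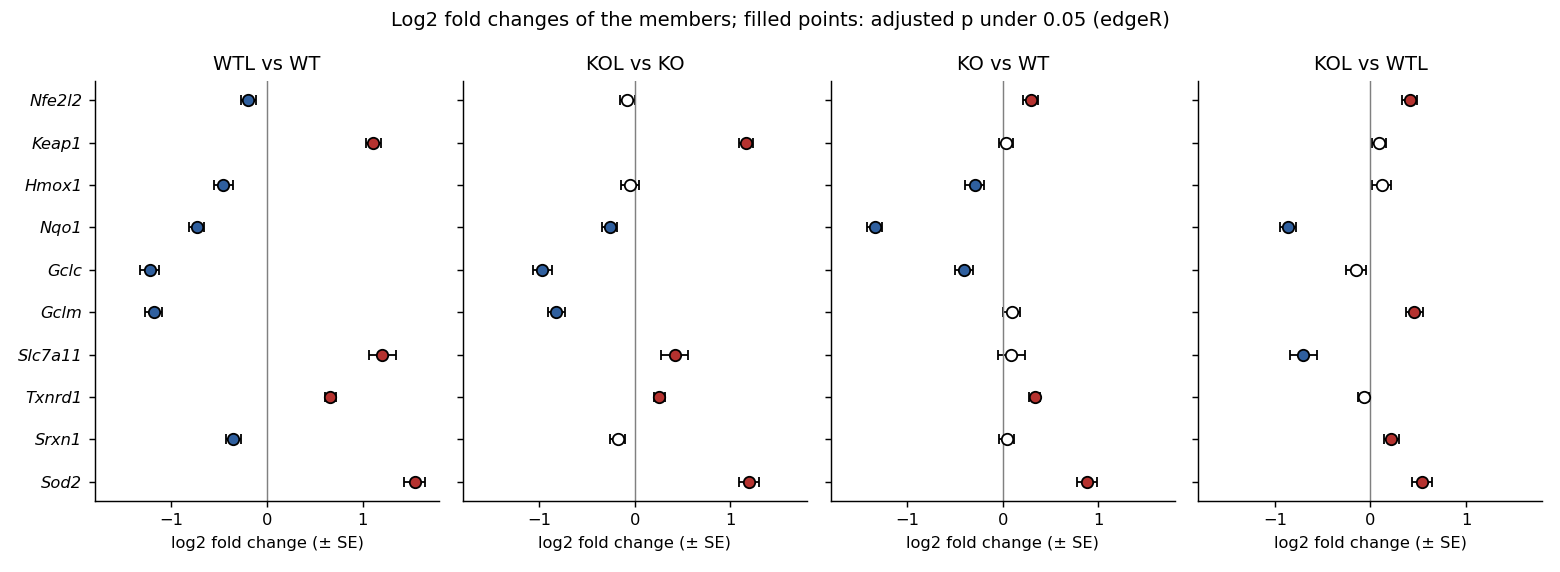
Log2 fold changes of the 10 members in 4 comparisons, on normalized counts, with bars of ± 1 SE and filled points where the adjusted p is under 0.05 (red higher, blue lower). With LPS, Sod2 and Keap1 lie above 1 in both genotypes, and in KO against WT Nqo1 lies at -1.34 and Sod2 at 0.88.

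The interaction asks whether the LPS response differs between KO and WT. It was called for Nqo1, Slc7a11 and Txnrd1, 3 of the 10 members, where 17.4% of all genes were called, 8.7% higher and 8.75% lower. In all 3 the response in KO had the same sign as in WT and was smaller on normalized counts. Nqo1 fell by 0.74 in WT and by 0.26 in KO, a difference of 0.47 ± 0.11 (adjusted p = 0.01). Slc7a11 rose by 1.21 in WT and by 0.42 in KO, a difference of -0.79 ± 0.20 (adjusted p = 0.013). Txnrd1 rose by 0.66 in WT and by 0.26 in KO, a difference of -0.40 ± 0.08 (adjusted p = 0.0037). Hmox1 (0.41 ± 0.14, adjusted p = 0.061), Gclm (0.36 ± 0.13, 0.062) and Sod2 (-0.35 ± 0.15, 0.12) did not pass. Hmox1 and Gclm passed in DESeq2 (adjusted p = 0.024 and 0.031), in ranges over all alternatives of 0.012 to 0.14 and 0.019 to 0.15. Without WT replicate 2, the difference in Slc7a11 had an adjusted p of 0.056, and over all its alternatives the adjusted p ran from 3e-08 to 0.056.

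**Figure D3:**
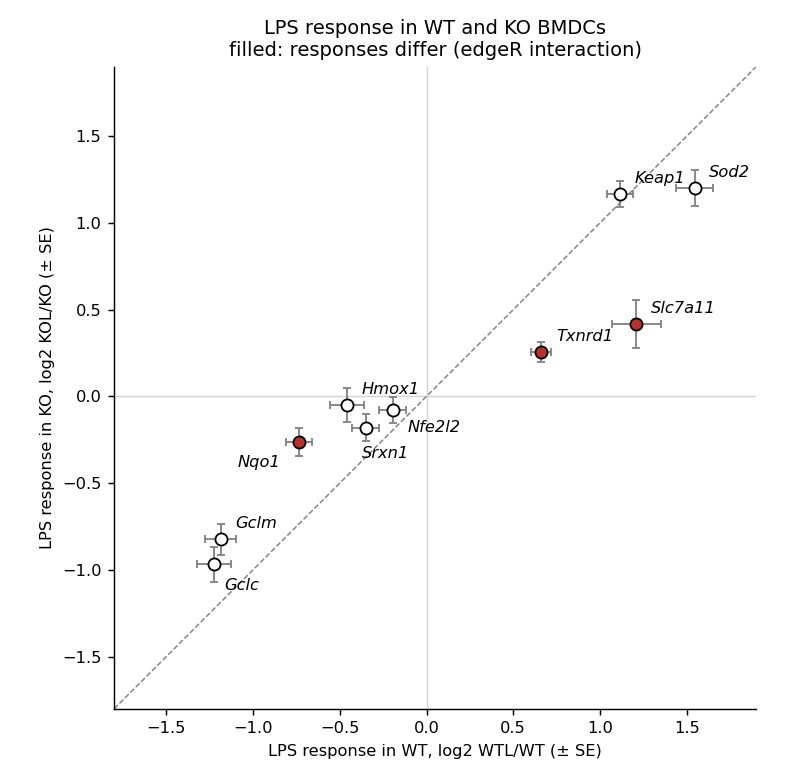
LPS response of each member in KO (log2 KOL/KO, vertical axis) against that in WT (log2 WTL/WT, horizontal axis), with bars of ± 1 SE and a dashed line where both are equal. The filled points, Nqo1, Slc7a11 and Txnrd1, have an interaction with an adjusted p under 0.05 and lie nearer to 0 in KO than in WT.

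Nfe2l2 encodes Nrf2 itself (ENSMUSG00000015839, mm10 chromosome 2, 75675513 to 75704641, minus strand). Its normalized count was 5844, 5415 and 5501 in WT, 5335, 4501 and 4817 in WTL, 6769, 6825 and 6940 in KO and 6083, 6288 and 7076 in KOL. The KO libraries all lay above the WT libraries and the KOL libraries above the WTL libraries, whereas KO and KOL overlapped. Nfe2l2 rose by 0.29 ± 0.08 in KO against WT (adjusted p = 0.0067) and was 0.41 ± 0.08 higher in KOL than in WTL (adjusted p = 0.00062). With LPS its log2 change was -0.19 ± 0.08 in WT (adjusted p = 0.042) and -0.08 ± 0.08 in KO (adjusted p = 0.38).

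The LPS call of Nfe2l2 in WT was lost without WTL replicate 2, the library with the most ribosomal RNA (-0.14, adjusted p = 0.19). Without WTL replicate 3 it was also lost (adjusted p = 0.092). The same held in the fit of the 6 libraries compared (0.053), with DESeq2's size factors (0.051) and with a block on replicate number (0.051). Over all alternatives the adjusted p ran from 4.2e-05 to 0.19. The call of Nfe2l2 in KO against WT was lost without WT replicate 2 (adjusted p = 0.061), without WT replicate 3 (0.053) and on TPM (0.12), in a range of 2.1e-06 to 0.12.

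Keap1 encodes the adaptor that presents Nrf2 for degradation (ENSMUSG00000003308, chromosome 9, 21229730 to 21239361, minus strand). The normalized counts were 740, 782 and 737 in WT, 1490, 1713 and 1683 in WTL, 780, 769 and 762 in KO and 1822, 1608 and 1760 in KOL. Every stimulated library lay above every unstimulated one, and the genotypes overlapped at rest and after LPS. Keap1 rose 2.16-fold in WT (log2 1.11 ± 0.07, adjusted p = 1.1e-08) and 2.25-fold in KO (1.17 ± 0.07, adjusted p = 5.4e-09). The difference between these responses was 0.05 ± 0.11 (adjusted p = 0.78), and Keap1 differed by 0.03 ± 0.08 between KO and WT and by 0.09 ± 0.07 between KOL and WTL. The antisense gene Gm16754 overlaps Keap1, with 61.9 counts per library on average against 1172 for Keap1. Because the strand setting of the counting is not stated, reads of the 2 genes cannot be told apart.

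Hmox1 encodes heme oxygenase 1, which opens the heme ring to give biliverdin, iron and carbon monoxide (ENSMUSG00000005413, chromosome 8, 75093621 to 75100589, plus strand). Its normalized count was 7734, 8782 and 8113 in WT, 5229, 5828 and 6876 in WTL, 6567, 6498 and 7065 in KO and 6360, 5914 and 7158 in KOL. WT stood above the other 3 groups, whose ranges overlapped each other. Hmox1 fell with LPS in WT by 0.46 ± 0.10 on the log2 scale (adjusted p = 0.0011), and changed by -0.05 ± 0.10 in KO (adjusted p = 0.67). It fell by 0.29 ± 0.10 in KO against WT (adjusted p = 0.028). That call was lost without WT replicate 2 (adjusted p = 0.071), KO replicate 1 (0.087) or KO replicate 2 (0.093) and on TPM scaled to a common median (0.092), in a range over all alternatives of 1.8e-05 to 0.093. Between KOL and WTL it differed by 0.12 ± 0.10 (adjusted p = 0.37).

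Nqo1 encodes the quinone reductase NAD(P)H quinone dehydrogenase 1, often used as a readout of Nrf2 activity (ENSMUSG00000003849, chromosome 8, 107388225 to 107403206, minus strand). The normalized count was 965, 955 and 876 in WT, 607, 515 and 559 in WTL, 362, 355 and 389 in KO and 303, 295 and 322 in KOL. The 4 groups did not overlap, and every KO library lay below every WTL library. Nqo1 was 2.53-fold lower in KO than in WT (log2 -1.34 ± 0.08, adjusted p = 5.3e-09) and 1.82-fold lower in KOL than in WTL (-0.87 ± 0.08, adjusted p = 9.1e-07). It fell with LPS in WT (-0.74 ± 0.08, adjusted p = 1.1e-06) and in KO (-0.26 ± 0.08, adjusted p = 0.011). Without KO replicate 3 the fall in KO was -0.23 with an adjusted p of 0.052, in a range of 6.6e-05 to 0.052.

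**Figure D4:**
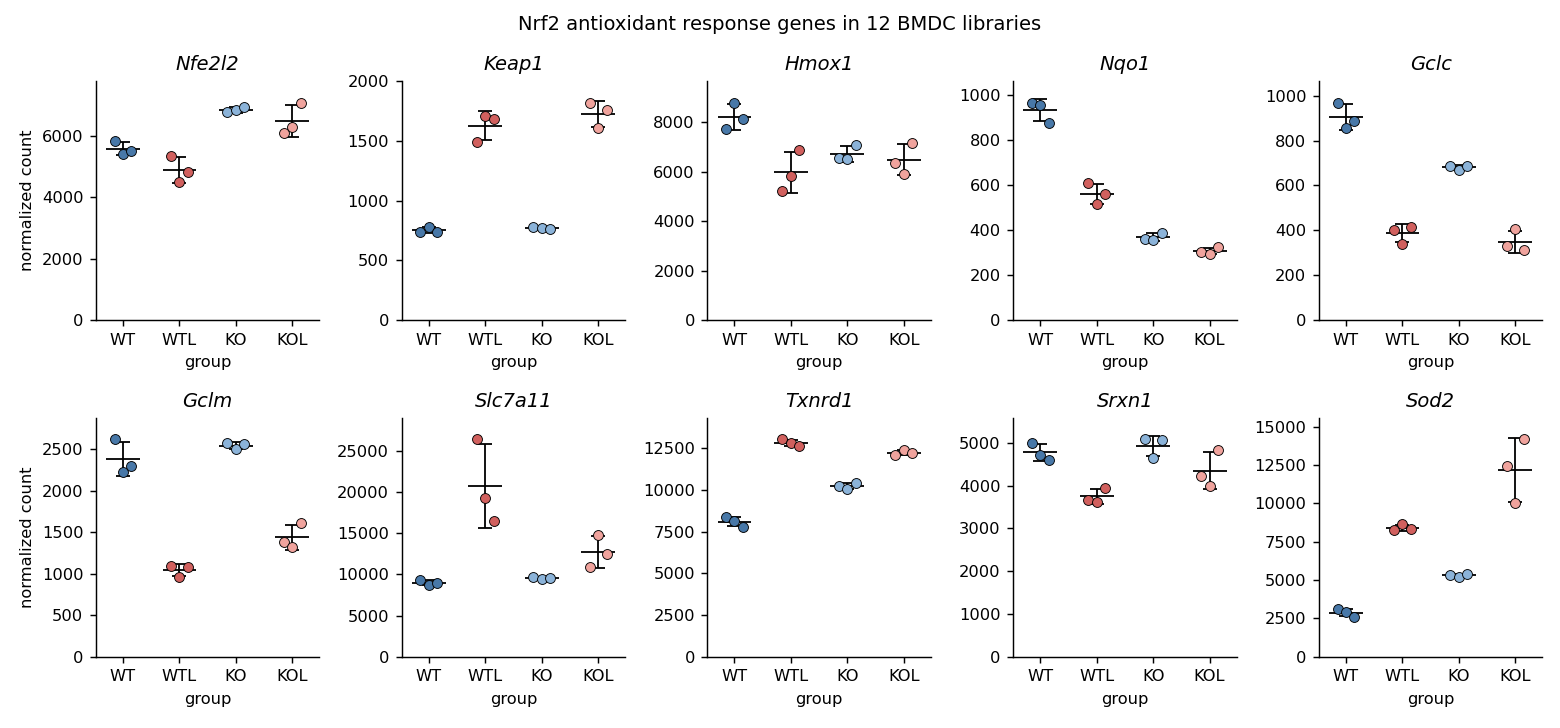
Normalized count of each member in each library (points, vertical axes from 0), with the mean and SD of each group of 3 as black bars. Nqo1 steps down from WT through WTL and KO to KOL, Sod2 is higher in KO than in WT and higher in KOL than in WTL, and Slc7a11 spreads from 16450 to 26353 among the WTL libraries.

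Glutathione is made in a step that glutamate-cysteine ligase limits, from cysteine that is imported as cystine. Gclc, the catalytic subunit of the ligase (ENSMUSG00000032350, chromosome 9, 77754535 to 77794485, plus strand), had normalized counts of 968, 858 and 887 in WT, 403, 340 and 417 in WTL, 687, 670 and 688 in KO and 331, 405 and 312 in KOL. KO lay below WT in every library, and both stimulated groups lay below KO and overlapped each other. Gclc fell 2.34-fold with LPS in WT (log2 -1.23 ± 0.10, adjusted p = 8e-08) and 1.95-fold in KO (-0.97 ± 0.10, adjusted p = 9.5e-07). It was 1.33-fold lower in KO than in WT (-0.41 ± 0.09, adjusted p = 0.0028). KOL and WTL differed by -0.15 ± 0.10 (adjusted p = 0.27), a difference that passed without KOL replicate 2 (-0.27, adjusted p = 0.033), in a range of 0.033 to 0.66.

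Gclm, the modifier subunit (ENSMUSG00000028124, chromosome 3, 122245557 to 122270732, plus strand), had normalized counts of 2620, 2232 and 2304 in WT, 1099, 967 and 1081 in WTL, 2579, 2499 and 2560 in KO and 1381, 1323 and 1613 in KOL. Stimulated libraries lay below unstimulated ones in both genotypes, and KOL lay above WTL in every library. Gclm fell with LPS 2.27-fold in WT (log2 -1.19 ± 0.09, adjusted p = 4e-08) and 1.77-fold in KO (-0.82 ± 0.09, adjusted p = 1.4e-06). KO and WT differed by 0.09 ± 0.09 (adjusted p = 0.41), and on log2(TPM + 1) by -0.23 ± 0.08 (adjusted p = 0.05, not called). KOL was 1.37-fold higher than WTL (0.46 ± 0.09, adjusted p = 0.00084). Gm17494, annotated on the opposite strand, overlaps Gclm with 242 counts per library on average against 1923, so the strand limit given for Keap1 applies here as well. Slc7a11 and Txnrd1 each overlap a gene on the same strand, Gm37498 with 32.4 and Eid3 with 46.0 counts per library on average.

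Slc7a11 encodes the light chain of the cystine/glutamate exchanger (ENSMUSG00000027737, chromosome 3, 49892526 to 50443614, minus strand). Its normalized count was 9278, 8686 and 8906 in WT, 26353, 19267 and 16450 in WTL, 9619, 9458 and 9524 in KO and 10948, 14761 and 12443 in KOL. All WTL libraries lay above all KOL libraries, which in turn lay above both unstimulated groups. The spread among WTL libraries was the widest of any member in any group, an SD of 5103 on a mean of 20690. Slc7a11 rose 2.31-fold in WT (log2 1.21 ± 0.14, adjusted p = 4.2e-06) and 1.33-fold in KO (0.42 ± 0.14, adjusted p = 0.017). KOL was 1.63-fold lower than WTL (-0.70 ± 0.14, adjusted p = 0.00093). KO and WT did not overlap but differed by 0.09 ± 0.14 (adjusted p = 0.64), a difference that passed in the fit of these 6 libraries alone (adjusted p = 0.046, in a range of 0.046 to 0.98). The rise in KO was lost without KOL replicate 2 (0.29, adjusted p = 0.07), in a range of 2e-05 to 0.94.

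Txnrd1 encodes cytosolic thioredoxin reductase, which keeps thioredoxin reduced with NADPH (ENSMUSG00000020250, chromosome 10, 82833951 to 82897712, plus strand). The normalized count was 8355, 8167 and 7793 in WT, 13024, 12800 and 12643 in WTL, 10238, 10044 and 10413 in KO and 12064, 12393 and 12230 in KOL. The 4 groups did not overlap, in the order WT, KO, KOL and WTL. Txnrd1 was 1.26-fold higher in KO than in WT (log2 0.34 ± 0.06, adjusted p = 0.00027). It rose with LPS 1.58-fold in WT (0.66 ± 0.06, adjusted p = 1.9e-07) and 1.20-fold in KO (0.26 ± 0.06, adjusted p = 0.0012). KOL and WTL differed by -0.07 ± 0.06 (adjusted p = 0.36). On log2(TPM + 1) the LPS change in WT was 0.09 ± 0.06 and not called (adjusted p = 0.2, in a range of 1.1e-53 to 0.2), beside the reversal in KO given above.

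Srxn1 encodes sulfiredoxin, which restores peroxiredoxins that have been over-oxidised (ENSMUSG00000032802, chromosome 2, 152105516 to 152111376, plus strand). Its normalized count was 5001, 4725 and 4607 in WT, 3667, 3616 and 3952 in WTL, 5077, 4656 and 5056 in KO and 4220, 3993 and 4842 in KOL. WTL lay below all other groups, and KO overlapped both WT and KOL. Srxn1 fell with LPS in WT by 0.35 ± 0.08 on the log2 scale (adjusted p = 0.0015), and its change in KO was -0.18 ± 0.08 (adjusted p = 0.056). KOL was 0.22 ± 0.08 higher than WTL (adjusted p = 0.038). This call was lost without WTL replicate 1 (adjusted p = 0.074), WTL replicate 2 (0.12) or KOL replicate 3 (0.17), on TPM (0.14) and in the fit of 6 libraries (0.096), in a range of 0.0082 to 0.17. The change in KO passed without KO replicate 2 (0.046) or KOL replicate 3 (0.0081), in a range of 5.2e-05 to 0.17. KO and WT differed by 0.05 ± 0.08 (adjusted p = 0.68).

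Sod2 encodes the manganese superoxide dismutase of mitochondria (ENSMUSG00000006818, chromosome 17, 13006846 to 13040063, plus strand). The normalized counts were 3086, 2935 and 2623 in WT, 8238, 8625 and 8349 in WTL, 5355, 5190 and 5381 in KO and 12401, 9998 and 14161 in KOL. The 4 groups did not overlap, and KOL was highest in every library. Sod2 rose with LPS 2.92-fold in WT (log2 1.54 ± 0.11, adjusted p = 1.2e-08) and 2.30-fold in KO (1.20 ± 0.10, adjusted p = 1.4e-07). It was 1.84-fold higher in KO than in WT (0.88 ± 0.10, adjusted p = 8.1e-06) and 1.45-fold higher in KOL than in WTL (0.54 ± 0.10, adjusted p = 0.00068). The difference between the LPS responses passed without KOL replicate 3 (-0.46, adjusted p = 0.028), in a range of 0.028 to 0.7.

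RSEM also gives each gene a length, averaged over its transcripts by their estimated abundance, which was not used to choose the members. That of Txnrd1 was 3132 to 3146 bases in WT, 2973 to 2998 in KO, 3215 to 3241 in WTL and 3132 to 3235 in KOL, so KO lay below the other 3 groups. The length of Gclm was 1368 to 1548 bases in WT and 1631 to 1677 in KO, with no overlap, and 1318 to 1486 in WTL and 1465 to 1573 in KOL. Nqo1 had 1553 bases in all 12 libraries. These are described without a test, since an exact permutation test of 3 against 3 libraries cannot give a two-sided p below 0.1, and TPM divides by them.

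The rest of the pathway was read from a list of 75 other genes, of which 72 were tested and Gsta1, Gsta4 and Aox1 were not. With LPS in WT, 23 rose and 26 fell (68.1%, beside the 60.2% of all genes), and in KO against WT 22 rose and 19 fell (56.9%, beside 44.6%). KOL against WTL gave 25 higher and 16 lower (56.9%, beside 44.7%), KOL against KO 26 higher and 30 lower (77.8%, beside 67.5%), and the interaction 9 higher and 6 lower (20.8%, beside 17.4%). The medians were -0.10 for LPS in WT and 0.05 for KO against WT, beside -0.02 and -0.01 over all genes. On log2(TPM + 1), LPS in WT gave 7 higher and 45 lower, where 1710 of 13435 genes were higher and 7544 lower. Without KO replicate 2, KO against WT gave 12 lower.

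**Figure D5:**
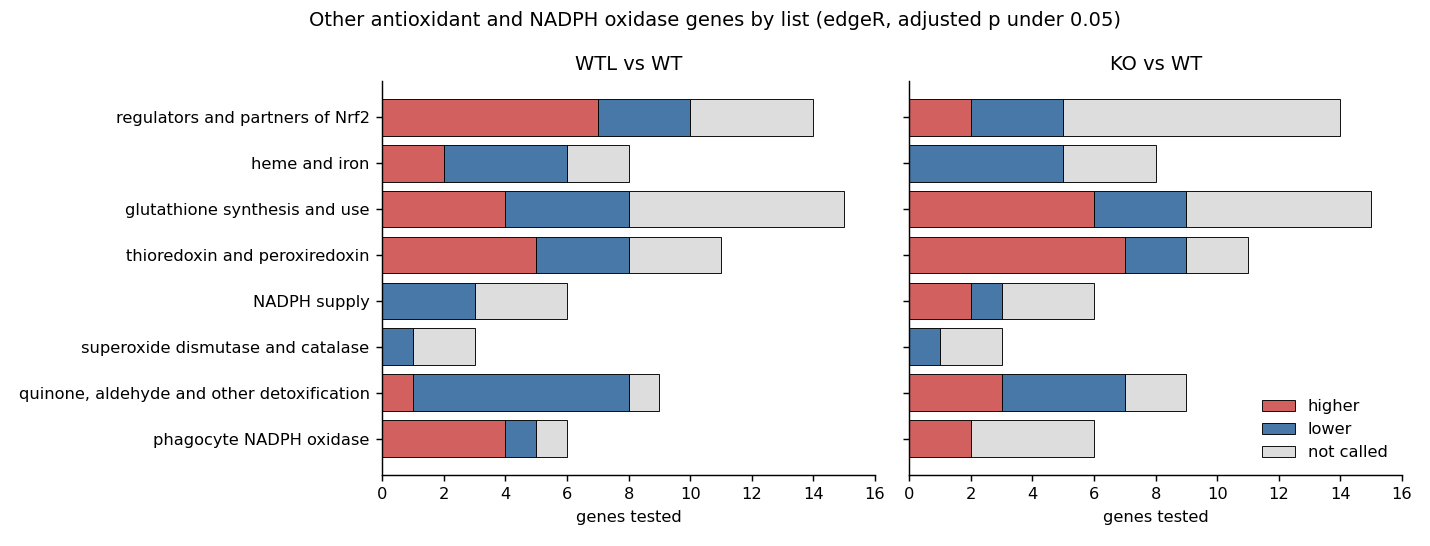
Number of tested genes called higher (red), lower (blue) or not called (grey) in each of 8 lists of other antioxidant and NADPH oxidase genes, for WTL against WT and KO against WT on normalized counts. In KO against WT, 7 of 11 thioredoxin and peroxiredoxin genes are higher, and 5 of 8 heme and iron genes are lower and none higher, where 22.2% of all genes tested are higher and 22.4% lower.

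The counts of the 8 lists that follow stand beside shares over all genes of 30% higher and 30.2% lower with LPS in WT, and of 22.2% higher and 22.4% lower in KO against WT. Among 14 regulators and partners of Nrf2, 7 rose and 3 fell with LPS in WT (median 0.21), and 2 rose and 3 fell in KO against WT (median -0.03). Trim21, a ubiquitin ligase and antibody receptor of the cytosol, rose from 305 ± 29.9 to 2338 ± 351 normalized counts (SD, n = 3) with LPS, a log2 change of 2.94 ± 0.14. Mafk, a small Maf partner of Nrf2, rose from 449 ± 13.2 to 1472 ± 40.2 (1.71 ± 0.08). Maff, another small Maf, was at 339 ± 3.21 in WT and 214 ± 12.7 in KO, where it fell by 0.67 ± 0.08. Sqstm1, an autophagy receptor that binds Keap1, rose in KO by 0.36 ± 0.07, from 9781 ± 361 to 12587 ± 303, but not on TPM (0.11, adjusted p = 0.27). Bach1, a repressor that competes with Nrf2 for its elements, was named after its values were seen. It fell with LPS in WT from 2162 ± 72.3 to 874 ± 111 (-1.31 ± 0.13) and in KO from 2531 ± 28.7 to 806 ± 178 (-1.65 ± 0.13).

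Of 8 heme and iron genes, 2 rose and 4 fell with LPS in WT (median -0.18), where 30% of all genes rose and 30.2% fell. In KO against WT none rose and 5 fell (median -0.27), beside the 22.2% and 22.4% of all genes. The heme transporter Slc48a1 was at 3167 ± 74.5 in WT, 1835 ± 159 in WTL and 2318 ± 30.7 in KO, falling by 0.79 ± 0.08 with LPS and by 0.45 ± 0.08 in KO. Blvrb, a biliverdin reductase, fell in KO from 2448 ± 110 to 1966 ± 84.1 (-0.32 ± 0.07). Fth1, the ferritin heavy chain, rose with LPS by 0.79 ± 0.15, from 52976 ± 2265 to 91880 ± 14193, but on TPM by 0.26 with no call (adjusted p = 0.21). It has many processed copies in the genome, so its count is uncertain.

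Of 15 genes of glutathione synthesis and use, 4 rose and 4 fell with LPS in WT (median -0.20), where 30% of all genes rose and 30.2% fell. In KO against WT 6 rose and 3 fell (median 0.13), beside the 22.2% and 22.4% of all genes. Slc3a2, the heavy chain that pairs with Slc7a11, rose with LPS from 4092 ± 154 to 6380 ± 297 (0.64 ± 0.06), a call lost on TPM (0.12, adjusted p = 0.098). Gss, glutathione synthetase, fell from 646 ± 36.3 to 426 ± 41.7 (-0.60 ± 0.09). In KO, the secreted peroxidase Gpx3 rose from 172 ± 14.0 to 780 ± 35.5 (2.18 ± 0.09), and the transferase Gstp1 from 596 ± 45.6 to 1287 ± 28.2 (1.11 ± 0.08). Gstp1 has a near-identical neighbour and its count is uncertain. Mgst2, a microsomal transferase that was named after its values were seen, fell in KO from 171 ± 14.2 to 9.87 ± 2.76 (-4.10 ± 0.19).

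Of 11 thioredoxin and peroxiredoxin genes, 5 rose and 3 fell with LPS in WT (median 0.18), and 7 rose and 2 fell in KO against WT (median 0.50), beside the same shares of all genes. The peroxiredoxin Prdx5 rose with LPS from 7184 ± 204 to 14391 ± 525 (1.00 ± 0.07), and thioredoxin itself, Txn1, from 7046 ± 208 to 13747 ± 1139 (0.96 ± 0.08). Prdx1 rose in KO from 26692 ± 1768 to 44930 ± 1150 (0.75 ± 0.10). Txnip, which binds and inhibits thioredoxin, fell in KO from 7194 ± 19.6 to 3632 ± 79.1 (-0.99 ± 0.07). Txn1 and Prdx1 have processed copies in the genome and are uncertain to that extent.

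Of 6 genes that supply NADPH, none rose and 3 fell with LPS in WT (median -0.23), where 30% of all genes rose and 30.2% fell. In KO against WT 2 rose and 1 fell (median 0.21), beside the 22.2% and 22.4% of all genes. Idh1, a cytosolic isocitrate dehydrogenase, was at 3036 ± 23.3 in WT, 1146 ± 31.0 in WTL and 4464 ± 119 in KO, changing by -1.41 ± 0.06 with LPS and by 0.56 ± 0.06 in KO. G6pdx, the entry enzyme of the pentose phosphate pathway, was at 2577 ± 124, 1726 ± 107 and 3640 ± 121 in the same groups (-0.58 ± 0.10 and 0.50 ± 0.10). Among 3 superoxide dismutase and catalase genes, Cat fell with LPS from 2856 ± 126 to 1413 ± 67.4 (-1.02 ± 0.09). Sod3, named after its values were seen, was at 22.3 ± 4.83 in WT and 12.6 ± 3.13 in KO, where it was called lower (adjusted p = 0.035) but not without WT replicate 2 or 3 or KO replicate 2 or 3, in DESeq2 (0.078) or with no filter (0.073), in a range of 0.02 to 0.13.

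Of 9 quinone, aldehyde and other detoxification genes, 1 rose and 7 fell with LPS in WT (median -0.56), where 30% of all genes rose and 30.2% fell. In KO against WT 3 rose and 4 fell (median -0.17), beside the 22.2% and 22.4% of all genes. Osgin1, a stress-induced growth inhibitor, fell with LPS from 215 ± 12.9 to 61.6 ± 17.8 (-1.78 ± 0.15). The carbonyl reductase Cbr3 fell with LPS from 195 ± 32.9 to 101 ± 13.3 (-0.95 ± 0.16) and rose in KO to 313 ± 41.2 (0.68 ± 0.14), and Cbr1 rose in KO from 141 ± 5.12 to 252 ± 12.3 (0.84 ± 0.10). Of 6 genes of the phagocyte NADPH oxidase, which makes superoxide, 4 rose and 1 fell with LPS in WT (median 0.34). In KO against WT 2 of them rose (median 0.06), and both counts stand beside the same shares of all genes. The membrane subunit Cybb rose with LPS from 19112 ± 493 to 30981 ± 8643 (0.70 ± 0.17), but not on TPM (0.13, adjusted p = 0.55). Rac2, a small GTPase of the complex, rose in KO from 3825 ± 181 to 8441 ± 239 (1.14 ± 0.07). Ncf4 was 0.22 ± 0.06 higher in KO (adjusted p = 0.012), a call lost without WT replicate 1 or 2 or KO replicate 2, in the fit with no filter (0.082) and on TPM (0.16).

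The genes whose profiles over the 12 libraries were most like those of the members were found from the root-mean-square difference of centred log2 normalized counts, among 9337 genes with at least 100 normalized counts on average. Nearest to Hmox1 were Ptgr1 (0.08) and Fbxo4 (0.09), and nearest to Nqo1 were Mcemp1 (0.14) and Atad5 (0.16). Among those most like Gclc was Gpn3 (0.11), and Gclm was followed by Mindy1 (0.10) and Fbxo21 (0.11). For Slc7a11 they were Ppip5k2 (0.08) and Tshz1 (0.11), for Txnrd1 Tnfrsf1a (0.07) and Arpc2 (0.07), and for Srxn1 Tial1 (0.06) and Srsf1 (0.06). Keap1 had Wsb2 (0.05) and Zfp513 (0.07), Nfe2l2 had Ptp4a2 (0.07) and Insig2 (0.08), and Sod2 had Cbln1 (0.17) and Tpst1 (0.19). Among the members themselves, the nearest pairs were Nfe2l2 with Srxn1 (0.15) and Hmox1 with Srxn1 (0.15). Gclc and Gclm, which encode subunits of 1 enzyme, were each the nearest member to the other, at 0.31. Profiles were centred but not scaled, so genes with small changes lie nearer to each other by this measure than genes with large ones. Nqo1 was far from all other members, with Gclc nearest at 0.53.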

How the data were processed

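RNA-seq libraries of BMDCs from 4 groups (WT, WTL, KO, KOL, 3 each) were grouped by the genotype and treatment in their labels. Reads were trimmed by the authors and aligned with STAR to the mm10 build, and RSEM estimated the level of each gene. The labels' processing notes give STAR 2.5.1, and the labels name depletion of ribosomal RNA where the methods name poly(A) selection. The authors deposited, per gene and library, RSEM's expected count, an estimated count in which shared reads are divided among genes, and TPM, which keeps no depth. The deposited transcript length is RSEM's mean over transcripts. Whether counting used strand is not given in the sources used here. Gene positions are those of GENCODE M21.

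Expected counts were rounded, normalized with TMM and filtered by group with filterByExpr in edgeR 4.0.16 (R 4.3.3). The quasi-likelihood test was fitted to all 12 libraries without covariates, the Benjamini-Hochberg adjustment covered all 14008 genes tested, and the threshold was 0.05 with no fold cutoff. The SE was taken as the size of the log2 fold change divided by the square root of its F. A normalized count is a count over the effective library size of its library, times the mean of that size over the 12 libraries. Errors of means are SDs over 3 libraries. P-values measure the spread between these libraries, which the fit shares among all groups for each gene. Over all genes, replicate pairs differed more in WTL and KOL than in WT and KO. The numbers of genes called depend on this sharing. In fits of only the 6 libraries compared, they were 8272 rather than 6241 in KO against WT, and 4475 rather than 6257 in KOL against WTL.

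Alternatives were DESeq2 1.42.0, edgeR on the 6 libraries compared, DESeq2's size factors, no filter, a minimum of 10 counts per library, a block on replicate number, log2 TPM with a pseudocount of 1 or 0.1 in limma 3.58.1 (genes reaching a TPM of 1 in 3 libraries), the study's fold cutoffs, and leaving out each replicate. The study's LPS cutoff of 2 was also applied to KOL against KO, for which the study gives none. Scaling TPM to a common median was added after seeing the data. The fits were tested on simulated data.

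Named genes are Ctcf, the 10 members, up to 2 genes of each list with the largest called change in WTL against WT and in KO against WT (at least 100 normalized counts on average), and the 2 genes most like each member. A few genes that this rule names are not reported here. The lists were the 10 members, the 8 lists of 75 other genes and the marker lists. The members and lists were chosen with earlier results of these data known. Total expected counts of 12769773 to 16586334 set the precision. Ensembl identifiers are printed without their version.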

Additional observations from a re-analysis of the deposited data

Results flagged for a closer look

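The LPS response of 20 genes named in the text differed between KO and WT by edgeR's interaction test, adjusted over all 14008 genes. Among the members these were Nqo1 (difference 0.47 ± 0.11 on the log2 scale), Slc7a11 (-0.79 ± 0.20) and Txnrd1 (-0.40 ± 0.08), whose values in each library are given above.

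Among the other pathway genes, Maff responded to LPS by 0.85 in WT and 1.21 in KO, a difference of 0.36 ± 0.10 (adjusted p = 0.029). Slc3a2, the partner of Slc7a11, responded by 0.64 in WT and 0.36 in KO, a difference of -0.28 ± 0.09 (adjusted p = 0.048). Gstp1 responded by -0.11 in WT and -0.63 in KO, a difference of -0.52 ± 0.12 (adjusted p = 0.0079). Rac2 responded by 0.27 in WT and -0.21 in KO, a difference of -0.48 ± 0.10 (adjusted p = 0.0038). The difference in Rac2 was not called on TPM (adjusted p = 0.36 on log2(TPM + 1)), that in Gstp1 was not called without WT replicate 1 (0.053), and that in Maff was not called without KO replicate 2 (0.088), KO replicate 3 (0.072) or KOL replicate 1 (0.068). That in Slc3a2 was not called in 8 of the 12 fits that left out a library, WTL replicate 2 among them (0.13), or on TPM (0.25). Mgst2, which was at 9.87 normalized counts in KO on average, responded by -0.27 in WT and 1.45 in KO, a difference of 1.72 ± 0.27 (adjusted p = 0.00074).

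Genes chosen for a profile like that of a member share its response through that choice, so their differences are no further evidence. Ptgr1, nearest to Hmox1, had a difference of 0.46 ± 0.12. Ppip5k2 (-0.75 ± 0.20) and Tshz1 (-0.65 ± 0.16) were nearest to Slc7a11, Tnfrsf1a (-0.37 ± 0.10) and Arpc2 (-0.39 ± 0.09) to Txnrd1, and Cbln1 (-0.88 ± 0.19) and Tpst1 (-0.53 ± 0.11) to Sod2. The calls of Ppip5k2, Tshz1, Tnfrsf1a, Arpc2 and Cbln1 were lost on log2(TPM + 1), and that of Ptgr1 without KO replicate 1 (adjusted p = 0.054). That of Ppip5k2 was also lost without WT replicate 1, 2 or 3 or KO replicate 2, and that of Tshz1 without WT replicate 1 or 3. For Tnfrsf1a it was lost without WT replicate 1, 2 or 3 and with no filter (0.065), and for Arpc2 without WT replicate 2 or 3.

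Among the marker and check genes, the difference was 1.42 ± 0.29 for Flt3, 1.56 ± 0.34 for Il6, 1.11 ± 0.25 for Il12b, 1.32 ± 0.21 for Ptgs2 and -0.34 ± 0.10 for Cxcl10. The responses of Il6, Il12b and Ptgs2 were 4.82 to 7.97 in WT and 6.15 to 9.53 in KO. Their larger responses in KO started from lower resting levels. The 4 LPS check genes summed to 91.9 to 93.9 TPM in KO against 158 to 189 in WT. In KO, 1 of the 4 averaged under 1 TPM, as did Flt3. All 4 stayed lower in KOL than in WTL. The calls of these 4 LPS check genes were lost on log2(TPM + 1), and that of Cxcl10 also in 9 of the 12 fits that left out a library.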

How the results depend on the processing

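Of 800 values of single members under the alternatives, 741 kept their direction or stayed uncalled on the same side of the threshold, 24 lost a call, 31 gained one and 4 reversed. Leaving out 1 library lost 13 calls, gained 10 and reversed none. Of 859 values of other named genes, 90 lost their call and none reversed. The 4 reversals were on TPM in KOL against KO, where Slc7a11 was at -0.01399 with a pseudocount of 1 and -0.01419 with 0.1, and Txnrd1 at -0.3031 and -0.304. TPM with either pseudocount also gave 2 members higher and 7 lower in KOL against KO, 10 pathway genes higher in KOL against KO, and 7 pathway genes higher and 45 (pseudocount 1) or 44 (pseudocount 0.1) lower in WTL against WT. With a pseudocount of 1, 2245 of 13435 genes were higher and 6935 lower in KOL against KO. In WTL against WT, 1710 were higher and 7544 lower. The cause was not tested. The study's fold cutoffs, which leave fewer calls by construction, gave 2 members lower and 4 pathway genes higher and 7 lower in WTL against WT. They gave 1 member higher and 11 pathway genes lower in KO against WT, and 0 members higher and 13 pathway genes higher and 6 lower in KOL against WTL. The LPS cutoff of 2, applied here to KOL against KO, gave 2 members higher, 0 lower and 7 pathway genes in each direction.

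Members with a positive interaction numbered 1 with edgeR as reported, 3 in DESeq2, with no filter and with a minimum of 10 counts per library, and 2 with DESeq2's size factors, under the replicate block, on TPM with either pseudocount and on TPM at a common median. When 1 library was left out, they numbered 1 to 3 and those with a negative interaction 1 to 3 (1 without WT replicate 2). Pathway genes with a negative interaction numbered 3 (without WT replicate 1) to 12 (without KOL replicate 2) against 6, and those lower in KO against WT 12 (without KO replicate 2) to 18 against 19. The cause was not tested.

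Deviations from the group mean in samples with the same replicate number had correlations of -0.286 to 0.112, with 1 of 18 pairs over 0.1. Pairs with unlike numbers reached 0.326, for WTL replicate 1 with KOL replicate 2. With 3 replicates per group, these correlations cannot show whether samples shared a mouse or a culture. No pairing was assumed in the main fit. The replicate block changed 3 calls of members: Nfe2l2 in WTL against WT was lost (adjusted p = 0.051), and Srxn1 in KOL against KO (0.05) and the interaction of Hmox1 (0.043) were gained. It also lost the interactions of Maff (0.053), Slc3a2 (0.084) and Cxcl10 (0.058).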
